A study of Homo sapiens with 12 samples.

Results

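The replication-dependent histone genes were taken as all genes whose symbol begins with H2AC, H2BC, H3C or H4C and a digit, or is one of H1-1 to H1-5, and 60 of the 17589 genes in the table met this rule. They comprised 5 genes of the linker histone H1, 14 of H2A, 16 of H2B, 12 of H3 and 13 of H4. RNA-seq was performed on YT cells, a human line described as NK-like, all of which had been infected with a lentiviral vector and sorted for eGFP. The control cells (CTRL) carried eGFP, and the hnCD16 cells carried a high-affinity, non-cleavable variant of CD16a. The FR1 and FR2 cells carried the ectodomain of this same variant. It was fused to the signalling domains of 2B4, DAP10 and CD3ζ (FR1) or of DAP10 and CD3ζ (FR2). The receptors were driven by the constitutive hEF1A promoter, and the RNA came from unstimulated cells, with 3 libraries in each of the 4 groups. Nothing in the labels says that the 3 libraries of a group came from separate cultures or transductions, so the p-values below measure the spread between these libraries, which may be technical.

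Replication-dependent histone genes encode the bulk of the histones that package newly made DNA, and their mRNA accumulates during S phase. Their mRNAs normally end in a short stem-loop instead of a poly(A) tail, which is bound by SLBP and formed by cleavage with the U7 snRNP, while NPAT drives transcription of the clusters on chromosomes 1 and 6. Some of the genes also give rise to longer, polyadenylated mRNAs, mainly in cells that have stopped dividing.

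The labels name both depletion of ribosomal RNA and enrichment of mRNA with oligo(dT) beads, and how fully mRNAs without a tail entered the libraries was not tested. The 60 genes together took 0.00397% of the counts in CTRL and 0.00408% in hnCD16, against 0.00945% in FR1 and 0.00864% in FR2 libraries. The 19 replication-independent histone genes in the table took 0.510%, 0.537%, 0.434% and 0.450% in the same order. In bulk RNA, a different number of cells in S phase and a different amount of histone RNA per cell cannot be told apart.

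Libraries held 17714566 to 18729019 counts, and 3 counts, taken as the floor of detection, corresponded to 0.151 CPM in CTRL and 0.173 CPM in FR1. These limits cover counting error only. FCGR3A, the gene of CD16a on which the receptors are based, was not counted in CTRL (0 in each library), whereas hnCD16 libraries held 453 to 480 counts, FR1 libraries 559 to 567 and FR2 libraries 1012 to 1132. The FR1 and FR2 libraries stood apart from the CTRL and hnCD16 libraries well beyond the histone genes, and the latter went against the cell type on the label. The 15 NK cell markers summed to between 43.8 and 49.2 CPM in CTRL and hnCD16 and to between 4218 and 4569 CPM in FR1 and FR2, with KLRF1 at 3 counts or fewer in every library. GZMB, NKG7 and PRF1 made up most of the sum in FR1 and FR2, while NCR3 went the other way, from between 101 and 109 counts in CTRL and hnCD16 to 17 or fewer in FR1 libraries and 5 or fewer in FR2 libraries, and TYROBP, at 2 to 6 counts in CTRL and hnCD16, had 0 in every FR library. KLRD1 overlapped, with 202 to 267 counts in CTRL and hnCD16 and 225 to 282 in FR1 and FR2. At least 1 CPM in every library was reached by 5 of the 15 in CTRL and in hnCD16, and by 11 in FR1 and in FR2. Of 11 T cell markers 10 were in the table, and they summed to between 745 and 870 CPM in CTRL and hnCD16 and to between 67.0 and 74.7 CPM in FR1 and FR2, where CD3D, CD4, CD8A, CD8B and CD6 had 3 counts or fewer. CD3E and LAT were still counted in FR1 and FR2, at 595 to 717 and 392 to 502 counts. At least 1 CPM in every library was reached by 8 of the 10 in CTRL and in hnCD16, and by 4 in FR1 and in FR2. Of 8 B cell markers 7 were in the table, and they summed to 15.6 to 20.03 CPM in CTRL and hnCD16 and 45.1 to 53.4 CPM in FR1 and FR2, with CD22 at 3 counts or fewer throughout. Every histone difference between the FR groups and the other 2 groups moved together with these markers, and their part in it was not tested.

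All 60 genes were single-exon genes in their canonical GENCODE v44 transcript, and the stem-loop was found within 200 bases after the stop codon in 60 of 60. It began 22 to 67 bases after the stop. Its 16-base core, read from the hg38 genome, was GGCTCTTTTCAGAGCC in 34 genes, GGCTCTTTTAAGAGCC in 8, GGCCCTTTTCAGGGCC in 8 and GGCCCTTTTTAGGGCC in 4. The stem-loops of the genes described below are printed 5′ to 3′ as the sense strand with the core in capitals, since they are the shared 3′ end element of the family.
H1-2: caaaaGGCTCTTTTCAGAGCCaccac
H2AC6: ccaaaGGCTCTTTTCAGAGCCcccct
H2AC18: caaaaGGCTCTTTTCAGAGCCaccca
H2AC20: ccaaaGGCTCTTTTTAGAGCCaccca
H2BC5: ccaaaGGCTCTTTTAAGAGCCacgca
H2BC12: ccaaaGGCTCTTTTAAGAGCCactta
H2BC21: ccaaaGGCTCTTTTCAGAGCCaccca
H3C6: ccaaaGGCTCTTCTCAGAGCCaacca
H4C11: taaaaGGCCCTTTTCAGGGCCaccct
H4C12: caaaaGGCCCTTTTTAGGGCCcccac
H4C14: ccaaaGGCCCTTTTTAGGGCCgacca
H4C15: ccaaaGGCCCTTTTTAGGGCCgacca
The core of H1-2 lies at chr6:26055744-26055759 on the minus strand, that of H2BC12 at chr6:27146366-27146381 on the minus strand, and that of H2BC21 at chr1:149886188-149886203 on the minus strand. H2BC5 and H2BC12, whose levels moved in opposite directions, have the same core, as have H4C14 and H4C15 throughout the printed 26-base window.

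Promoters were taken from RefSeq (GRCh38.p14) as 250 bases before to 50 bases after the start, and 55 of the 60 genes matched. CCAAT on either strand was in 47 of the 55 (85.5%) against 35.7% of all 27305 promoters of the same length, and in 3 of 11 H4 promoters. TATAAA was in 36 of the 55 (65.5%) against 12% of all promoters. The octamer ATTTGCAT, a site for POU2F1 in H2B promoters, was in 10 of 13 H2A and 13 of 16 H2B promoters against 1.8% of all promoters. AAACACA was in 5 of 5 H1 promoters against 5.76%. These are matches of letters, both strands counted and overlaps between motifs allowed, and not sites shown to be bound. The promoters of H1-2 and H2AC6, which had the highest log2 fold changes in FR1 against hnCD16 of the genes at a mean of 1 CPM or more, of H2BC12, which fell, and of H2BC21 are shown with these motifs in capitals, in either orientation.
H1-2: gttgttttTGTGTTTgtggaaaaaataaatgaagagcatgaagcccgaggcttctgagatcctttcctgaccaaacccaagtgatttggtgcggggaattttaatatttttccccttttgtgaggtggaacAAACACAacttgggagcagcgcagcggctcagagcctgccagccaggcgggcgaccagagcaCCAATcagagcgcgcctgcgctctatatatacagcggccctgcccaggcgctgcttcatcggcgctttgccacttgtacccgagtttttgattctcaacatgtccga
H2AC6: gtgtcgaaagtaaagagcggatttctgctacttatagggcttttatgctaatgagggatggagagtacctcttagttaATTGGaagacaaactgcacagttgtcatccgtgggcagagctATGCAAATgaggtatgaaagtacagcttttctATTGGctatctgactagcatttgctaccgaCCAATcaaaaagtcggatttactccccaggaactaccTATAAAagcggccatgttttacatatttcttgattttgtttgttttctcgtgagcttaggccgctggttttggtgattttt
H2BC12: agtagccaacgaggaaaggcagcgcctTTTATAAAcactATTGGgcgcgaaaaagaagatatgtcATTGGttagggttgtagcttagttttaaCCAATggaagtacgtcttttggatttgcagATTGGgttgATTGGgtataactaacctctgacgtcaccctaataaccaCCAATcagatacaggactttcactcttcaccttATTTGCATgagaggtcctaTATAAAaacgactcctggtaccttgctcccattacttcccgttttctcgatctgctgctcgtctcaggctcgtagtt
H2BC21: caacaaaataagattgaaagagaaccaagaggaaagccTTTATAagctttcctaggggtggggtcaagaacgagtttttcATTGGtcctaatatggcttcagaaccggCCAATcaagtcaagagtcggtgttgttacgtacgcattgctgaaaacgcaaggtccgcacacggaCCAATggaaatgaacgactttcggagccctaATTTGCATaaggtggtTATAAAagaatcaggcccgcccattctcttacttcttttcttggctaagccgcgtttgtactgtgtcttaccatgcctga
They lie at chr6:26056421-26056720 on the minus strand (H1-2), chr6:26123922-26124221 on the plus strand (H2AC6), chr6:27146809-27147108 on the minus strand (H2BC12) and chr1:149886633-149886932 on the minus strand (H2BC21). H2BC12, which fell, and H2AC6 and H2BC21, which rose, all held CCAAT as well as TATAAA and the octamer.

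Summed over all 60 genes, expression was 36.8 ± 3.33 CPM in CTRL and 41.0 ± 2.96 in hnCD16, against 100.2 ± 0.742 in FR1 and 87.7 ± 3.39 in FR2 (SD, n = 3), where CPM is the count of a gene scaled to a common TMM library size. The lowest FR library, at 83.9 CPM, was above the highest of the other libraries, at 44.3 CPM. The classes did not share this difference alike. The 5 H1 genes summed to 2.99 ± 0.531 CPM in CTRL and 3.02 ± 0.174 in hnCD16, and to 28.1 ± 0.725 in FR1 and 24.2 ± 0.343 in FR2. H2A had summed levels of 6.28 ± 1.14, 6.97 ± 0.989, 30.3 ± 0.180 and 27.01 ± 3.43 CPM in CTRL, hnCD16, FR1 and FR2. H4 had 6.37 ± 0.225, 7.31 ± 0.759, 16.2 ± 0.268 and 13.7 ± 1.12 CPM, and H3 had 3.88 ± 0.455, 4.33 ± 0.401, 8.39 ± 0.238 and 6.22 ± 0.667 CPM. In all 4 of these classes each FR library was above each CTRL and hnCD16 library. H2B was the exception, with 17.3 ± 1.54 CPM in CTRL and 19.4 ± 0.904 in hnCD16, against 17.2 ± 0.694 in FR1 and 16.6 ± 0.490 in FR2, and its FR libraries overlapped those of CTRL and were below those of hnCD16. Most of the H2B counts in CTRL and hnCD16 came from 1 gene, H2BC12, at 11.4 and 13.1 CPM.

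**Figure D1:**
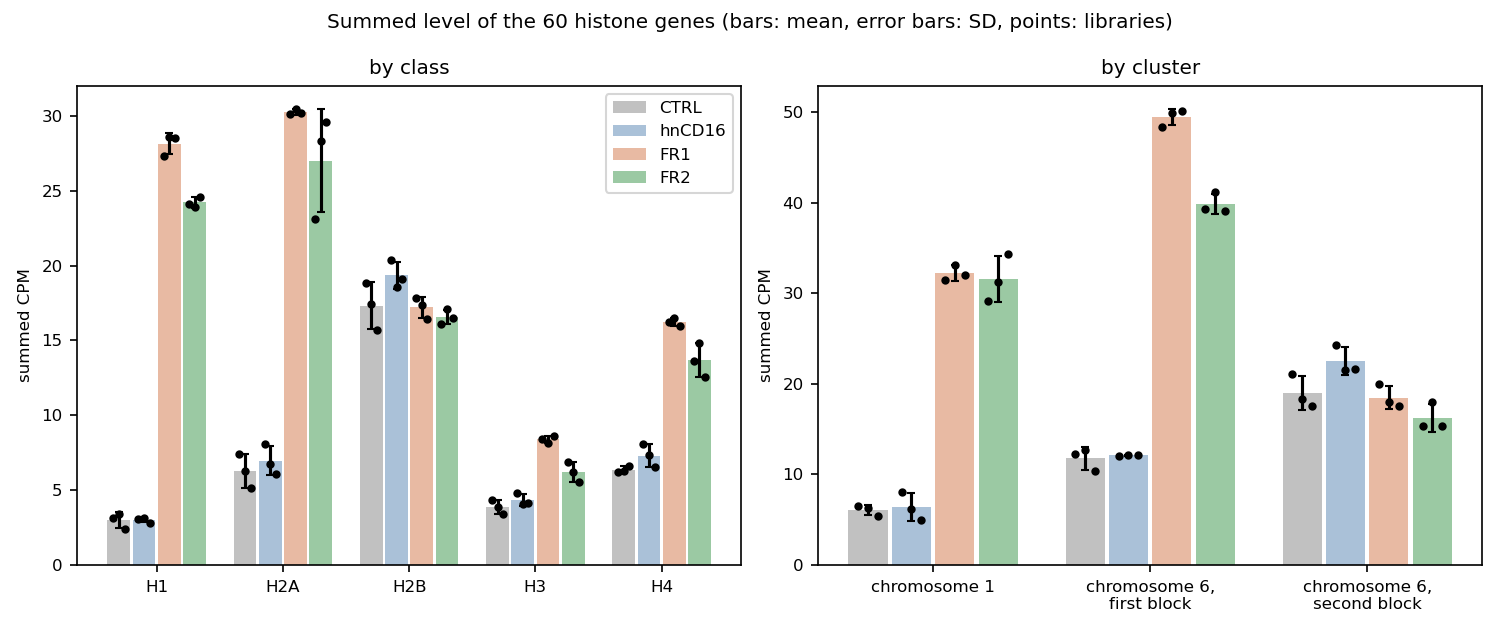
Summed CPM of the histone genes by class (left) and by genomic cluster (right), with bars for the mean, error bars for the SD and points for the 3 libraries of each group. H1, H2A, H3 and H4 are higher in FR1 and FR2, whereas H2B lies between 15.7 and 20.3 CPM in all 12 libraries.

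The genes lie in 3 places. The 9 genes on chromosome 1 summed to 6.09 ± 0.588 CPM in CTRL and 6.40 ± 1.54 in hnCD16, against 32.2 ± 0.869 in FR1 and 31.6 ± 2.57 in FR2. The 30 genes of the first block on chromosome 6 summed to 11.8 ± 1.25, 12.1 ± 0.0669, 49.5 ± 0.912 and 39.9 ± 1.13 CPM in the same order. The 21 genes of the second block on chromosome 6, which holds H2BC12, summed to 19.0 ± 1.88, 22.5 ± 1.54, 18.5 ± 1.29 and 16.2 ± 1.54 CPM. The FR libraries thus lay above the others for the chromosome 1 genes and the first block, and for the second block they overlapped those of CTRL and were below those of hnCD16. A few genes carried most of the difference. The sum was also taken without H1-2, H2AC6, H2AC18, H2AC20, H4C14 and H4C15, 6 genes with large rises chosen on these values. The other 54 summed to 28.9 ± 2.66, 32.9 ± 2.21, 39.1 ± 1.12 and 33.3 ± 2.39 CPM in CTRL, hnCD16, FR1 and FR2. The 54 still held H2BC13 and H2BC21. Their log2 fold changes in FR1 against hnCD16, 2.89 and 2.17, exceeded those of H2AC20 (1.87) and H4C14 (1.96).

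Genes were tested with edgeR (quasi-likelihood test, all 12 libraries in 1 fit), and a gene was called a DEG at 1 or more log2 units in either direction with a Benjamini-Hochberg adjusted p that did not exceed 0.05. Of the 60 genes, 27 passed the filter on low counts and 33 did not. The latter never exceeded 16 counts in a library, and together they had 79 to 99 counts in each CTRL and hnCD16 library, 122 in each FR1 library and 86 to 121 in FR2 libraries. A gene that passed only through its FR libraries had to differ, so the counts that follow describe the 27 genes and are no evidence about the family as a whole. Against hnCD16, 15 of the 27 were higher and 1 was lower in FR1, where 18.7% of all 13657 tested genes were higher and 19.6% were lower. In FR2 against hnCD16, 13 were higher and 1 was lower, against 19.6% and 19.8% of all tested genes. Against CTRL, 16 were higher and 1 was lower in FR1 (18.3% and 19.8% of all tested genes), and 12 were higher and 1 was lower in FR2 (18.7% and 19.6%). The gene that fell was H2BC12 in all 4 comparisons. These comparisons share control libraries and are not independent of each other. H4C14 and H4C15, counted as higher in all 4, share reads and are not separate observations.

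The median log2 fold change of the 27 genes was 1.52 in FR1 and 1.06 in FR2 against hnCD16, beside -0.01 and -0.03 over all tested genes, and 1.36 and 0.94 against CTRL, beside -0.03 and -0.04. H2BC8 and H2BC13 had 3 counts or fewer in every hnCD16 library, and with both at the lower bound of their fold the medians against hnCD16 were 1.45 and 1.06. Every FR library was above every CTRL and hnCD16 library for 11 of the 27 genes, a pattern that 31.4% of all tested genes showed, and below for 1, a pattern that 33.0% showed. The 11 were H1-2, H2AC6, H2AC18, H2AC20, H2BC5, H2BC13, H2BC21, H3C6, H3C10, H4C14 and H4C15. As said, H4C14 and H4C15 share reads.

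**Figure D2:**
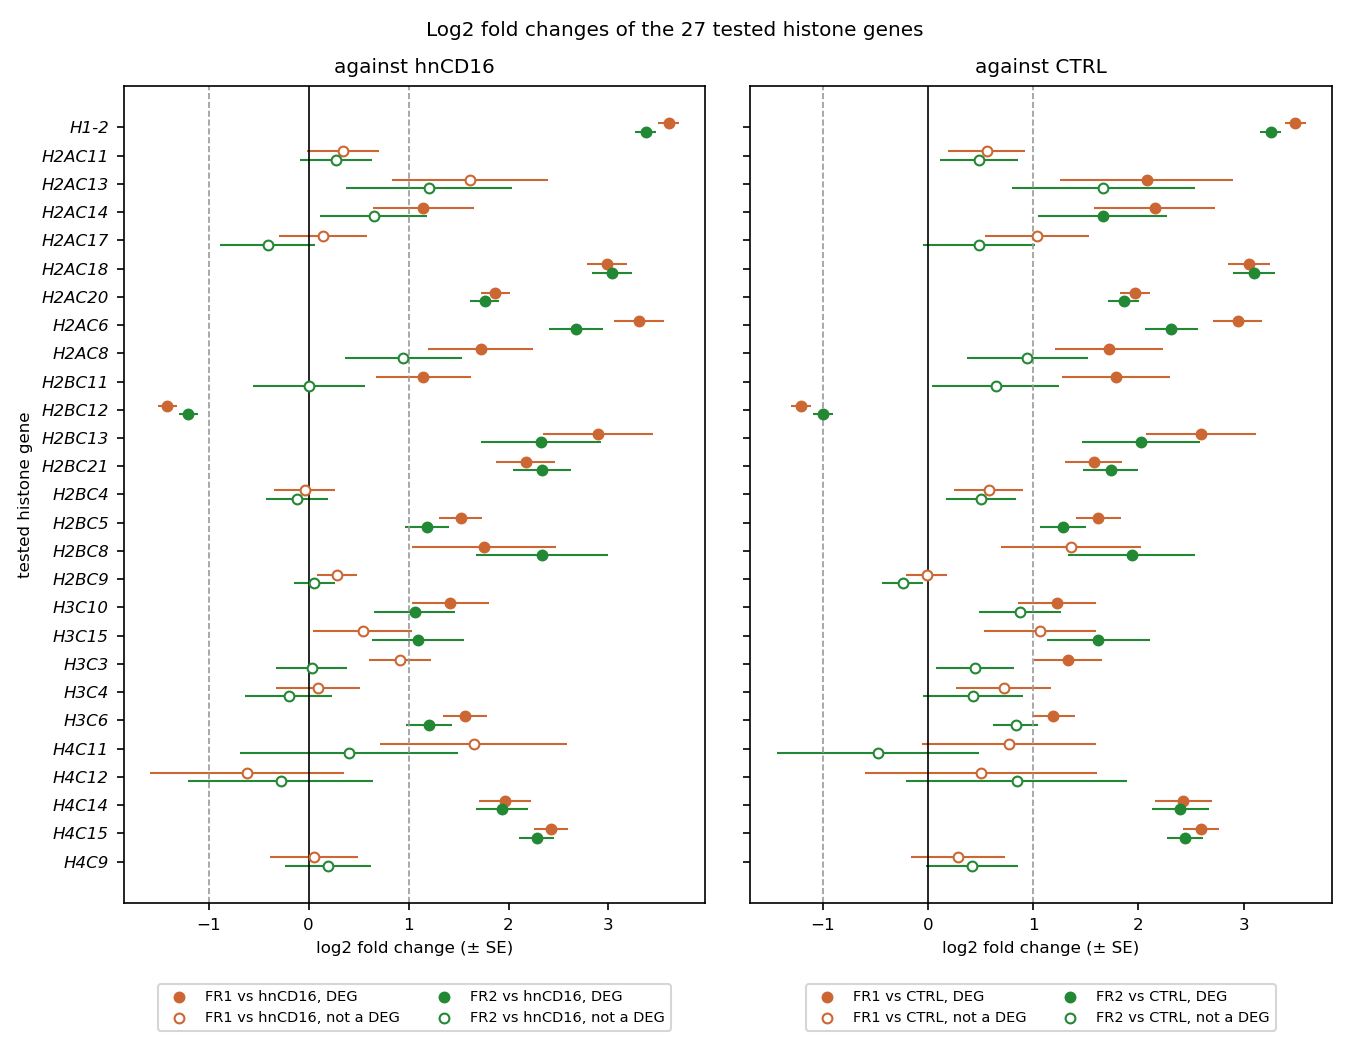
Log2 fold change with its SE (edgeR) for the 27 tested histone genes, FR1 and FR2 against hnCD16 (left) and against CTRL (right), with filled points for DEGs and dashed lines at -1 and 1. H1-2 lies farthest to the right at 3.26 to 3.6, and H2BC12 is the filled point on the left in both panels.

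No histone gene was a DEG between hnCD16 and CTRL, where 0.527% of all tested genes were DEGs, and none was between FR1 and FR2, where 1.93% were. By edgeR, 1 of the 27 had an unadjusted p under 0.05 in hnCD16 against CTRL and 4 in FR1 against FR2, while DESeq2 gave 0 and 2 with 0 DEGs in both. Without the fold threshold, H1-2, H2AC6 and H3C3 were higher in FR1 than in FR2, with log2 fold changes of 0.23, 0.63 and 0.89 and adjusted p-values from edgeR of 0.018, 0.011 and 0.037. Single libraries decided calls in both comparisons. Without CTRL replicate 1, 2 genes (H4C12 and H2AC14) were DEGs in hnCD16 against CTRL, without hnCD16 replicate 2 it was H4C11, and without hnCD16 replicate 3 it was H2AC17. In FR1 against FR2, H3C3 was a DEG without FR1 replicate 2, FR2 replicate 1 or FR2 replicate 3, and H3C8 without FR2 replicate 2.

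H1-2 encodes a linker histone, which binds DNA where it enters and leaves the nucleosome (chr6:26055740-26056470, minus strand, hg38). It had 53, 51 and 42 counts in CTRL and 36, 50 and 40 in hnCD16, but 462, 481 and 492 in FR1 and 414, 413 and 417 in FR2. The FR groups were far above the other groups without overlap, and all FR1 libraries were above all FR2 libraries. The log2 fold change was 3.6 ± 0.10 (SE) in FR1 and 3.37 ± 0.10 in FR2 against hnCD16, with adjusted p-values of 9.1e-16 and 2.8e-15 by edgeR, and 3.49 and 3.26 against CTRL. Per length it was the highest histone gene, at a mean of 34.8 TPM over all libraries, with 7.01 ± 0.662 TPM in CTRL and 5.86 ± 1.05 in hnCD16 beside 67.9 ± 2.65 in FR1 and 58.3 ± 1.07 in FR2. The other 4 H1 genes, H1-1, H1-3, H1-4 and H1-5, were under the filter.

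Of 8 tested H2A genes, 5 rose in FR1 and 3 in FR2 against hnCD16, and none fell. Among all tested genes 18.7% and 19.6% rose, and 19.6% and 19.8% fell. H2A pairs with H2B in the dimers that flank the H3-H4 core of the nucleosome. H2AC18 (chr1:149842218-149842750, minus strand) had 40, 32 and 16 counts in CTRL, 38, 28 and 20 in hnCD16, 225, 204 and 210 in FR1 and 200, 231 and 242 in FR2. The FR groups overlapped each other and were separate from the rest. It rose by 2.98 ± 0.20 log2 units in FR1 and by 3.03 ± 0.20 in FR2 against hnCD16 (edgeR adjusted p = 2.2e-10 and 1.5e-10). H2AC6 (chr6:26124172-26124690, plus strand) had 15, 13 and 12 counts in CTRL, 9, 8 and 12 in hnCD16, 82, 98 and 91 in FR1 and 41, 73 and 64 in FR2. All FR1 libraries were above all FR2 libraries, and both groups were above the others. Its log2 fold change was 3.30 ± 0.25 in FR1 and 2.67 ± 0.27 in FR2 against hnCD16 (edgeR adjusted p = 1.2e-09 and 5.4e-08). H2AC20 (chr1:149886918-149887411, plus strand) had 36, 35 and 40 counts in CTRL, 41, 38 and 32 in hnCD16, 120, 135 and 125 in FR1 and 109, 114 and 136 in FR2. Its log2 fold change was 1.87 ± 0.15 in FR1 and 1.76 ± 0.15 in FR2 against hnCD16. H2AC8 and H2AC14, at a mean under 1 CPM, rose in FR1 against hnCD16 with 1.72 ± 0.52 and 1.14 ± 0.51, and had 0.95 ± 0.59 and 0.65 ± 0.54 in FR2 without passing. Neither was a DEG when FR1 was tested against FR2.

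Of 8 tested H2B genes, 5 rose and 1 fell in FR1 against hnCD16, and 4 rose and 1 fell in FR2. The shares of all tested genes were 18.7% and 19.6% in FR1, and 19.6% and 19.8% in FR2. H2BC12 (chr6:27146361-27146855, minus strand) was the highest H2B gene, with 241, 215 and 225 counts in CTRL, 249, 246 and 237 in hnCD16, 89, 87 and 81 in FR1 and 95, 108 and 99 in FR2. The FR libraries were all below the others, and all FR1 libraries were below all FR2 libraries. It fell by 1.41 ± 0.10 in FR1 and by 1.21 ± 0.09 in FR2 on the log2 scale against hnCD16 (edgeR adjusted p = 2.6e-10 and 1.5e-09), and by 1.21 and 1.0 against CTRL. The last value stood at the fold threshold, and the call was lost with RLE normalization, in a fit of FR2 and CTRL alone and with DESeq2 (-0.99 each). It was also lost without CTRL replicate 1 (-0.95), CTRL replicate 3 (-0.996), FR2 replicate 1 (-0.95) or FR2 replicate 3 (-0.998). Per length H2BC12 had 30.9 ± 0.835 TPM in CTRL and 31.2 ± 1.76 in hnCD16, against 11.7 ± 1.55 in FR1 and 13.6 ± 2.1 in FR2. In CTRL and hnCD16 it was thus the highest of all 60 histone genes per length, and in both FR1 and FR2 its mean was below those of H1-2, H2AC18, H2AC20 and H4C15.

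H2BC21 (chr1:149884459-149886682, minus strand), whose canonical transcript runs 1729 bases past the stem-loop, had 17, 18 and 9 counts in CTRL, 13, 6 and 8 in hnCD16, 33, 42 and 40 in FR1 and 40, 42 and 49 in FR2. Its log2 fold change was 2.17 ± 0.30 in FR1 and 2.33 ± 0.29 in FR2 against hnCD16 (edgeR adjusted p = 2.7e-06 and 8.2e-07), and the call in FR1 was lost with limma on log2(TPM + 1) (0.96). H2BC5 (chr6:26158122-26158607, plus strand) had 22, 23 and 20 counts in CTRL, 25, 18 and 22 in hnCD16, 53, 69 and 53 in FR1 and 58, 45 and 38 in FR2, with the FR groups above the others and overlapping each other. Its log2 fold change was 1.52 ± 0.21 and 1.18 ± 0.22 against hnCD16, and the second call was lost with limma on log2(TPM + 1) and log2(TPM + 0.1) (0.75 and 0.88). H2BC9 had 39, 49 and 37 counts in CTRL, 31, 28 and 36 in hnCD16, 38, 34 and 36 in FR1 and 33, 25 and 36 in FR2, and H2BC4 had 10 to 27 counts in all 12 libraries. Neither passed the test, with 0.28 ± 0.20 and -0.04 ± 0.31 in FR1 against hnCD16. H2BC13 had 2 counts in each hnCD16 library and 14, 16 and 14 in FR1, so its rise was at least 5.23-fold in FR1 and 3.51-fold in FR2 with hnCD16 set to the mean CPM of 3 counts. For H2BC8 the same bounds were 2.73-fold and 4.09-fold higher, although FR1 replicate 2 had 1 count.

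**Figure D3:**
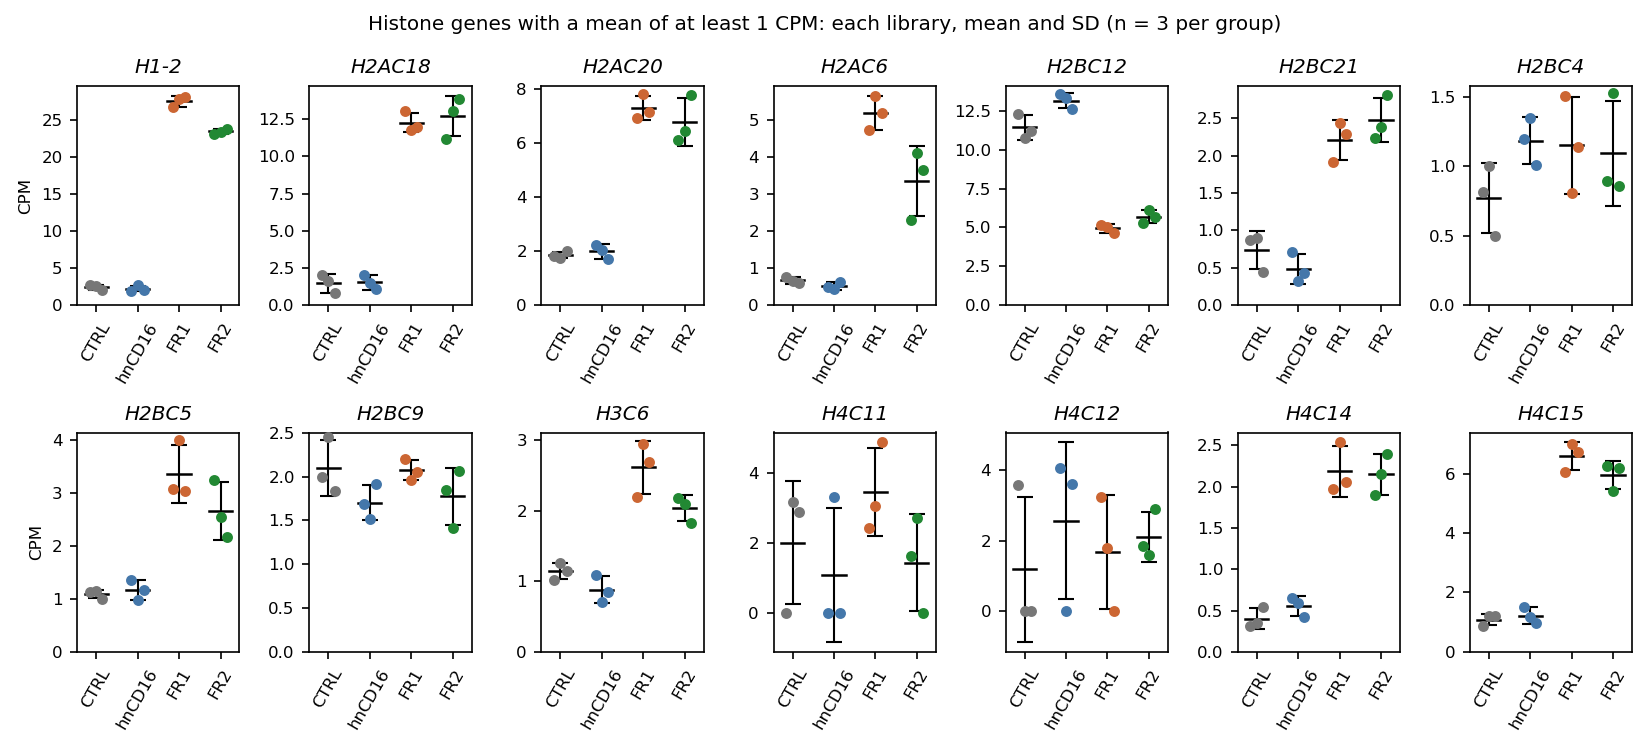
CPM of the 14 histone genes with a mean of at least 1 CPM in each library, with the mean and SD per group (n = 3) and an axis of its own for each gene. Of the 14, 9 lie above CTRL and hnCD16 in every FR library, H2BC12 lies below, and H2BC4, H2BC9, H4C11 and H4C12 overlap between groups. H4C14 and H4C15 share reads.

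Of 5 tested H3 genes, 2 rose in FR1 and 3 in FR2 against hnCD16, beside 18.7% and 19.6% of all tested genes. So few genes carry no result about the class. H3 forms the core of the nucleosome with H4 and carries much of its modified tail. H3C6 (chr6:26225135-26225616, plus strand) had 20, 25 and 23 counts in CTRL, 20, 13 and 16 in hnCD16, 38, 51 and 47 in FR1 and 39, 37 and 32 in FR2. The FR libraries were all above the others. Its log2 fold change was 1.56 ± 0.22 in FR1 and 1.2 ± 0.23 in FR2 against hnCD16 (edgeR adjusted p = 3.5e-06 and 1.0e-04), and 1.19 and 0.83 against CTRL, of which the last was under the fold threshold. The call in FR1 against CTRL was lost with library sizes alone (0.998) and with limma on log2(TPM + 1) or log2(TPM + 0.1) (0.53 and 0.91), and both calls against hnCD16 were lost with limma on log2(TPM + 1) (0.74 and 0.53). H3C10 had 1.42 ± 0.39 and 1.06 ± 0.41 against hnCD16, both DEGs, at a mean of 0.840 CPM. H3C15 passed in FR2 with 1.09 ± 0.46 and had 0.54 ± 0.50 in FR1, and H3C4 had 0.10 ± 0.42 and -0.20 ± 0.44. The annotated span of H4C15 covers H3C15 on the opposite strand, and since the strand setting of the counting is not given in the sources used here, reads of the 2 cannot be told apart.

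Of 5 tested H4 genes, 2 rose in both FR groups against hnCD16, beside 18.7% of all tested genes in FR1 and 19.6% in FR2. These 2 are copies of each other. H4C14 (chr1:149832657-149833052, plus strand) and H4C15 (chr1:149860764-149861159, minus strand) have identical 396-base canonical transcripts. The H4C15 transcript NM_001034077 was given the same expected counts as H4C14 in every library, to within rounding. Reads of the shared sequence were thus divided evenly, and the other H4C15 counts lay in its longer forms. The rise of H4C14 is therefore not separate from that of H4C15. H4C14 had 6, 7 and 11 counts in CTRL, 12, 11 and 8 in hnCD16, 34, 44 and 36 in FR1 and 34, 38 and 42 in FR2. H4C15 had 17, 24 and 24, then 28, 22 and 18, then 105, 121 and 118, and 112, 96 and 108 in the same order. Summed, the pair had 1.49 ± 0.288 CPM in CTRL and 1.78 ± 0.397 in hnCD16, against 8.79 ± 0.748 in FR1 and 8.11 ± 0.502 in FR2, with all FR libraries above the others. The summed pair rose by 2.3 ± 0.16 log2 units in FR1 and by 2.19 ± 0.16 in FR2 against hnCD16 (edgeR adjusted p = 2.3e-10 and 5.0e-10). The deposited transcript table gave H4C15 longer forms as well, and which of them received the reads varied, with XM_024451708 at 0 in every CTRL and hnCD16 library, 68.9 to 74.9 expected counts in FR1, and 44.7, 0 and 61.1 in FR2.

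H4C11 (chr6:27824092-27824480, plus strand) and H4C12 (chr6:27831174-27831560, minus strand) differed by 4 edits over 387 bases (98.97% identity), and their counts replaced each other between replicates. H4C11 had 0, 63 and 58 counts in CTRL, 0, 61 and 0 in hnCD16, 42, 53 and 85 in FR1 and 29, 48 and 0 in FR2. H4C12 had 70, 0 and 0 in CTRL, 75, 0 and 68 in hnCD16, 56, 31 and 0 in FR1 and 33, 28 and 51 in FR2. In each CTRL and hnCD16 library one of the 2 was thus at 0, and which one differed within a group. Their sum was steadier, at 3.20 ± 0.348 CPM in CTRL and 3.66 ± 0.395 in hnCD16, against 5.13 ± 0.470 in FR1 and 3.56 ± 0.696 in FR2. The sum was no DEG, with 0.48 ± 0.15 in FR1 against hnCD16 (edgeR adjusted p = 0.0075) and -0.04 ± 0.16 in FR2 (adjusted p = 0.83). Values of either gene alone are therefore uncertain, including the DEG calls that appeared when single libraries were left out.

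**Figure D4:**
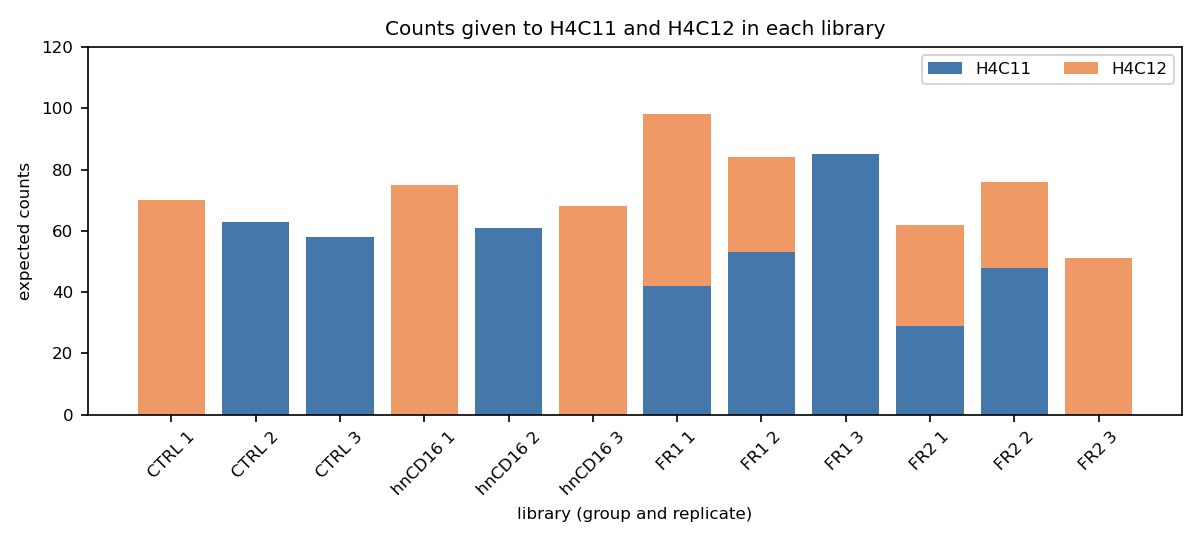
Expected counts given to H4C11 (lower part of each bar) and H4C12 (upper part) in the 12 libraries. Whole bars change hands between the 2 genes within a group, while their sum stays between 51 and 98 counts.

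Many H2A and H2B genes share a promoter region and are read in opposite directions, and 10 such pairs had starts 194 to 251 bases apart. Both members passed the filter in 5 of the pairs. H2AC20 and H2BC21 rose together, with 1.87 and 2.17 in FR1 and 1.76 and 2.33 in FR2 against hnCD16. H2AC8 and H2BC8 had 1.72 and 1.76 in FR1, where both passed, and 0.95 and 2.33 in FR2, where only H2BC8 did. H2AC6 rose with 3.30 and 2.67, whereas H2BC4, its neighbour 246 bases away, had -0.04 and -0.11 and did not pass. H2AC13 and H2BC13 had 1.62 and 2.89 in FR1 and 1.21 and 2.32 in FR2, and only the latter passed. H2AC11 and H2BC11 had 0.35 and 1.15 in FR1, where only the latter passed, and 0.27 and 0.0039 in FR2, where neither did. H2BC12 fell, but its partner H2AC12 was under the filter, so that pair could not be compared.

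For 14 of the 60 genes GENCODE or RefSeq lists a form that runs more than 100 bases past the stem-loop, as a polyadenylated histone mRNA would. Of these, 10 were tested, and 8 rose and 1 fell in FR1 against hnCD16, while 7 rose and 1 fell in FR2. Of the other 46 genes 17 were tested, and 7 rose in FR1 and 6 in FR2. Over all tested genes 18.7% were higher in FR1 and 19.6% in FR2, and the difference between the 2 sets of histone genes was not tested. Among the genes with such a form that rose, H4C14 and H4C15 share reads. H1-2, H2AC18 and H2AC20, which rose, have no such form listed, whereas H2BC12, which fell, has one. Estimated transcript counts were divided between longer and shorter forms for H2BC5, H2BC12 and H2BC4, with length judged by counts per TPM relative to H2AC20. On this measure NM_138720 was a longer H2BC5 form (1.72) and NM_021063 a shorter one (0.98). Another H2BC5 form, XM_005249039, was longer still (1.9) and held at most 10.8% of the gene's counts, reached with FR1 replicate 3. For H2BC4, which did not pass, the longer NM_001381989 (5.23) held 42.4% to 80.9% of the gene's counts. NM_138720 had 5.22 ± 1.54 expected counts in CTRL and 9.33 ± 2.92 in hnCD16, against 29.5 ± 4.84 in FR1 and 35.0 ± 3.89 in FR2, and NM_021063 had 15.8 ± 2.61, 11.1 ± 5.67, 24.3 ± 10.8 and 11.2 ± 5.11. The division between forms varied within groups. NM_138720 held 24.0%, 65.4% and 46.7% of the H2BC5 counts in hnCD16, and NM_001381989 held 77.7%, 44.6% and 78.8% of those of H2BC4 in FR2. Counts of single forms are therefore uncertain. For H2BC12, NM_080593, the longer form on the same measure (1.78 against 1.0), held 70.6% to 100% of the gene's counts in every library. Its mean was 199 ± 21.9 expected counts in CTRL and 224 ± 20.3 in hnCD16, against 72.4 ± 8.81 in FR1 and 86.0 ± 8.32 in FR2, and the span of H2BC12 also covers H4C9 on the opposite strand, which had 5 to 18 counts.

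The other lists are given beside all tested genes, of which 18.7% were higher and 19.6% lower in FR1 against hnCD16, and 19.6% and 19.8% in FR2. Of 40 tested genes for histone transcription, 3′ end formation and decay, 2 rose and 1 fell in FR1 against hnCD16, and 2 rose and 4 fell in FR2, with medians of -0.08 and -0.17. SLBP, the stem-loop binding protein, had between 4405 and 5084 counts in all hnCD16, FR1 and FR2 libraries. Log2 fold changes were 0.03 ± 0.06 and 0.09 ± 0.06 against hnCD16, neither of which passed, and the first was negative with library sizes alone (-0.05), with limma on either TPM scale (-0.04 on both) and without hnCD16 replicate 3. NPAT, the transcriptional activator of the clusters, rose in FR1 with 1.08 ± 0.13 (edgeR adjusted p = 6.9e-07), a call lost with library sizes alone (0.9998) and with limma on log2(TPM + 1) (0.985), and had 0.78 ± 0.13 in FR2, under the fold threshold. CASP8AP2, found with NPAT in histone locus bodies, had 0.84 ± 0.15 and 0.50 ± 0.15 and was no DEG, but it was in FR1 without hnCD16 replicate 3, with 1.04. LSM11, a subunit of the U7 snRNP, had -0.56 ± 0.06 and -0.60 ± 0.06. XRN1, a 5′ to 3′ exonuclease, rose with 2.01 ± 0.14 and 1.74 ± 0.14, and SNRPF, an Sm protein of snRNPs, fell with -1.38 ± 0.08 and -1.58 ± 0.08. NPAT, CASP8AP2 and XRN1 shared a spread within the reference groups, with replicate 3 highest in both hnCD16 and CTRL. In hnCD16 NPAT had 772, 760 and 1039 counts, CASP8AP2 710, 826 and 1117 and XRN1 713, 772 and 1062. In CTRL NPAT had 604, 822 and 1002. The source of this spread was not tested.

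Most replication-independent histones are made throughout the cell cycle from polyadenylated mRNA. Of 27 listed, 12 were tested, and 1 rose and 3 fell against hnCD16 in both FR1 and FR2, so that 33.3% were DEGs in each, beside 38.3% and 39.5% of all tested genes. H2AZ2 fell from 10177 to 11082 counts in hnCD16 to a range of 3573 to 3766 in FR1 and 4100 to 4286 in FR2 libraries, with log2 fold changes of -1.43 ± 0.05 and -1.28 ± 0.05. H3-5 fell with -1.35 ± 0.29 and -2.27 ± 0.32. Of 27 histone chaperone and remodeller genes, 5 rose and 1 fell in FR1 and 2 rose and 4 fell in FR2, so that 22.2% were DEGs in each, beside 38.3% and 39.5% of all tested genes. ASF1A, which hands H3-H4 to the assembly factors, fell with -1.24 ± 0.06 and -1.35 ± 0.06, and RBBP7, a histone-binding subunit of several complexes, rose with 1.21 ± 0.05 and 1.09 ± 0.05. VPS72, a subunit of complexes that deposit H2A.Z, rose with 1.13 ± 0.07 and 1.07 ± 0.07, and the second call was lost with limma on log2(TPM + 1) (0.999). ATRX, which loads H3.3 at repeats, rose in FR1 with 1.5 ± 0.17 and had 0.99 ± 0.17 in FR2, at the fold threshold. Its counts were 852, 988 and 1396 in hnCD16, with replicate 3 highest as for NPAT.

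Histone mRNA belongs to S phase, and 50 S phase genes were tested beside it. Of these, 1 rose and 5 fell against hnCD16 in FR1 and likewise in FR2, with medians of -0.16 and -0.24. CCNE1, the cyclin of S phase entry, rose with 1.19 ± 0.07 and 1.36 ± 0.07. CDC6, which loads the replicative helicase, fell with -1.46 ± 0.06 and -1.57 ± 0.06, RFC5, a clamp loader subunit, with -1.23 ± 0.06 and -1.16 ± 0.06, and UHRF1, which couples DNA methylation to replication, with -2.0 ± 0.05 and -1.86 ± 0.05. DEGs made up 12% of the list in each comparison, beside 38.3% and 39.5% of all tested genes.

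The genes that lie between and beside the histone genes in the chromosome 6 cluster were also counted. Of 12 tested, 3 rose and 3 fell in FR1 against hnCD16, and 5 rose and 3 fell in FR2, so that 50% and 66.7% were DEGs, beside 38.3% and 39.5% of all tested genes. HFE, a regulator of iron uptake, rose with 1.84 ± 0.12 and 2.05 ± 0.11, BTN3A2, a butyrophilin, with 1.54 ± 0.05 and 1.71 ± 0.05, and BTN2A2 with 1.05 ± 0.09 and 1.69 ± 0.09, although the first was no DEG without hnCD16 replicate 2 (0.95), with library sizes alone (0.97) or with limma on log2(TPM + 1) and log2(TPM + 0.1) (0.83 and 0.93). ABT1 fell with -1.21 ± 0.07 and -1.30 ± 0.07. ZNF322 had 754, 908 and 994 counts in hnCD16 and at most 1 in any FR library, so that it was at least 276-fold lower in FR1 and at least 281-fold lower in FR2, and ZNF391 was at least 36.4-fold and 37.0-fold lower.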

How the data were processed

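RNA-seq of YT cells gave 12 libraries in 4 groups of 3, grouped by sample title. According to the methods, the authors cleaned reads with SOAPnuke, aligned the cleaned reads to GRCh38.p13 using HISAT2 2.1.0 and estimated expression using RSEM 1.3.1. The deposited expected counts, which the authors' RSEM run estimated per gene and transcript, carry no normalization, and the deposited TPM values come from the same reads. How reads shared by copies were divided, and the strand setting, are not given in the sources used here. FPKM, normalized counts and averages in the tables were not used here.

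Expected counts were rounded to whole numbers. edgeR 4.0.16 in R 4.3.3 was used with filterByExpr by group, TMM (factors 0.939 to 1.11), 1 quasi-likelihood fit of all 12 libraries without covariates and Benjamini-Hochberg adjustment over 13657 genes in each of 6 comparisons. SE is the absolute log2 fold change divided by the square root of F. On simulated counts of 13408 genes for FR1 vs hnCD16, 200 of 200 genes changed by a log2 fold change of 2 were called. The simulated dispersion was 0.003. This recovery does not extend to the smaller folds at low counts of many histone genes. Alternatives were DESeq2 1.42.0, RLE, limma 3.58.1 on log2 TPM after a pseudocount of 1 or 0.1, library size only, other filters, 2-group fits, a replicate block, no fold threshold, leaving out each library and, added after values were seen, summing copies of at least 95% identity. Pairs of replicates were checked and none was identical.

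The histone genes and the gene lists were chosen with earlier results of these data known. Histone genes with a mean of at least 1 CPM were named, with full values for DEGs and the 5 highest by TPM, and of the other lists the 3 highest and 3 lowest DEGs in FR1 vs hnCD16, plus SLBP, NPAT, CASP8AP2 and LSM11. Other histone genes named with values, among them H2AC8, H2AC11, H2AC13, H2AC14, H2AC17, H2BC8, H2BC11, H2BC13, H3C3, H3C4, H3C8, H3C10, H3C15 and H4C9, were added after their values were seen. Gene and stem-loop positions are from GENCODE v44 on hg38. Figures were drawn with matplotlib.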

Additional observations from a re-analysis of the deposited data

How the results depend on the processing

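The number of histone DEGs depended most on the filter. With at least 10 counts required in every library it was 7 in FR1 and 7 in FR2 against hnCD16 and 7 and 6 against CTRL, since few of the genes remained to be tested. In FR1 against CTRL it was 26 without a filter on low counts and 11 with limma on log2(TPM + 1). In FR1 against FR2 it was 2 in a fit of only these groups and 3 without a fold threshold. DESeq2, the program named in the study's methods, gave 14 in FR1 and 13 in FR2 against hnCD16, and 16 and 11 against CTRL. Some edgeR calls in FR1 against hnCD16 lay near the limit of 0.05. Their adjusted p-values by edgeR were 0.047 for H2AC14, 0.035 for H2BC11 and 0.034 for H2BC8. Leaving out each library in turn gave 14 to 17 DEGs in FR1 and 12 to 14 in FR2 against hnCD16, 17 to 19 and 11 to 14 against CTRL, 0 to 2 in hnCD16 against CTRL and 0 to 1 in FR1 against FR2. Same-numbered libraries did not deviate together in every comparison (mean r from -0.03 to 0.25). In hnCD16 against CTRL they did so for replicates 1 and 3 (r = 0.34 and 0.40) but not 2 (0.02), beside a mean of -0.13 between unlike numbers. With the replicate block the counts were 18 in FR1 and 14 in FR2 against hnCD16, 17 and 13 against CTRL and 0 in both other comparisons. Of the values of named genes, SLBP in FR1 against hnCD16 turned negative with library size only (-0.050) and with limma on either TPM scale (-0.042 and -0.042), and ran from -0.0043 without hnCD16 replicate 3 to 0.056 over the libraries left out. Of 1372 such values under alternatives, 1335 kept direction and side of the threshold, 27 lost the call and 6 gained one. The cause of these shifts was not tested. Histone counts are low, and 33 of the 60 genes could not be tested.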
